A study of Mus musculus with 4 samples.

Results

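The 65 genes described here encode the histones, the proteins that DNA is wound around in the nucleus. They were chosen by symbol: every protein-coding gene of the clusters named Hist1h, Hist2h, Hist3h and Hist4h, and 9 variant genes (H1f0, H1fx, H2afx, H2afy, H2afy2, H2afz, H2afv, H3f3a and H3f3b), with at least 40 counts summed over the libraries. This left 65 of 73 candidates, among 41214 gene identifiers in the tables. By class, 6 members were H1 genes, 13 H2A, 13 H2B, 11 H3 and 13 H4, and 47 of these 56 lay in the Hist1 cluster on chromosome 13, 6 in Hist2 on chromosome 3, 2 in Hist3 on chromosome 11 and 1 in Hist4 on chromosome 6. The candidates just under the minimum were Hist1h2bq with 20 counts and Hist1h2ao with 16, and those just above it were Hist1h2br with 82 and Hist1h1t with 141.

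RNA was sequenced from megakaryocytes, the platelet-forming cells of the bone marrow, of 8-week-old C57Bl/6 mice. Sorting from tibia, femur and humerus took cells that lacked lineage markers and carried cKit, CD41 and CD61. There were 4 groups of 1 library each: Gfi1b wild-type and Gfi1b knockout (KO) mice with PF4-Cre, a Cre recombinase driven by a promoter active in megakaryocytes, and the same genotypes with ROSA-Cre, about which the labels say no more. The labels give the Cre for wild-type and knockout alike. The Gfi1b alleles of each group, and whether mice were pooled, are not stated there. Where 4 values follow each other, the first is PF4-Cre wild-type, the second PF4-Cre KO, the third ROSA-Cre wild-type and the fourth ROSA-Cre KO.

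Most Hist cluster genes are replication-dependent: they are transcribed while DNA is copied, to package the new DNA. Their messenger RNAs end in a conserved stem-loop, bound by the protein SLBP, in place of a poly(A) tail. Variant histones are usually made outside the period of DNA copying from genes with introns and polyadenylated messengers, and they replace the canonical proteins at particular sites. Libraries were made with a stranded mRNA kit, which captures poly(A) tails, so the counts of stem-loop messengers need not follow their abundance in the cell.

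The stem-loops are shown because their stem differs between the H4 genes and the other Hist classes and because they mark the end of a replication-dependent messenger. The search took only 16-base matches with a stem of the form GGYYCT (Y for C or T) and its exact complement. The form of the stem was thus set in advance, apart from the Y bases, and a stem-loop of another form would be missed. Such a stem-loop was found in the annotated transcripts of 39 of the 56 Hist members and in H2afx. All 27 such H1, H2A, H2B and H3 genes had the stem GGCTCT with its complement AGAGCC, and all 12 such H4 genes had GGCCCT or GGTCCT. In the sequences below, read 5′ to 3′ as DNA from GENCODE M21 transcripts on GRCm38, capitals mark the stem-loop.
Hist1h1c (H1), chr13:23739507-23739532, plus strand: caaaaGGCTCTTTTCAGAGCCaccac
Hist1h2bj (H2B), chr13:22043633-22043658, plus strand: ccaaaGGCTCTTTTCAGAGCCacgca
Hist3h2ba (H2B), chr11:58949344-58949369, plus strand: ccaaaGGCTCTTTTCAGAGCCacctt
Hist2h2ac (H2A), chr3:96220413-96220438, minus strand: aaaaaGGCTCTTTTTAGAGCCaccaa
Hist1h3f (H3), chr13:23544927-23544952, plus strand: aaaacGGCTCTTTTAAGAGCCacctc
Hist1h4d (H4), chr13:23581945-23581970, plus strand: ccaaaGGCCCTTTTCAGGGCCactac
Hist1h4m (H4), chr13:21812124-21812147, plus strand: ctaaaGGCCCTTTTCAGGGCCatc
Hist1h4n (H4), chr13:21831793-21831818, minus strand: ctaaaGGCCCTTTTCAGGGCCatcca
H2afx (variant), chr9:44335235-44335260, plus strand: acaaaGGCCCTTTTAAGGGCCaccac

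Promoters are shown for members whose counts moved together or apart. RefSeq promoter windows (GRCm38.p6, 250 bases before to 50 after the start) were matched for 59 members. Motifs were searched on both strands, each on its own. CCAAT stood in the windows of 39 of 39 matched H1, H2A, H2B and H3 genes, in 3 of 12 H4 genes and in 37.4% of all 32851 windows. TATAAA stood in 61.5% of the 52 Hist windows (1 gene has a pair of windows) and in 13.6% of all windows. The octamer ATTTGCAT stood in 6 of 13 H2A and 4 of 12 H2B windows, in none of the 27 H1, H3 and H4 windows, and in 1.74% of all windows. Windows of neighbouring H2A and H2B genes that are read in opposite directions can overlap, so some matches count for both genes. A match describes the letters only. The 250 bases before the start follow, 5′ to 3′ on the gene's own strand, with these motifs in capitals. That of Hist2h2ac covers every base up to the start of its neighbour Hist2h2be, which is read the other way.
Hist1h1b (H1), chr13:21780626-21780875, minus strand: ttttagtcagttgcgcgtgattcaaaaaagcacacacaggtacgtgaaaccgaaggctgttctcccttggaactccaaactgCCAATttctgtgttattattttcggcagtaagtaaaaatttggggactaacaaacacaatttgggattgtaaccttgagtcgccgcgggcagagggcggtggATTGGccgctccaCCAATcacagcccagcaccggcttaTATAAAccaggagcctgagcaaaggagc
Hist1h2ag (H2A), chr13:22042950-22043199, minus strand: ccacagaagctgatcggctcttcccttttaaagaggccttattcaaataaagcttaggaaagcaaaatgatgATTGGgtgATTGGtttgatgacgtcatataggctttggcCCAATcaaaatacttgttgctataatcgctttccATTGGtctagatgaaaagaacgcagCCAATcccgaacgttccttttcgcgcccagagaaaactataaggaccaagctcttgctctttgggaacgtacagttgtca
Hist2h2ac (H2A), chr3:96220881-96221130, minus strand: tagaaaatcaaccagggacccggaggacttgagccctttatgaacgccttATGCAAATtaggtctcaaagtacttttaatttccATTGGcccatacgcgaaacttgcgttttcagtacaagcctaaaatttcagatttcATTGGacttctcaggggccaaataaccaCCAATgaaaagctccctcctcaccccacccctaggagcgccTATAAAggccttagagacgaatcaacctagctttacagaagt
Hist1h4k (H4), chr13:21750554-21750803, minus strand: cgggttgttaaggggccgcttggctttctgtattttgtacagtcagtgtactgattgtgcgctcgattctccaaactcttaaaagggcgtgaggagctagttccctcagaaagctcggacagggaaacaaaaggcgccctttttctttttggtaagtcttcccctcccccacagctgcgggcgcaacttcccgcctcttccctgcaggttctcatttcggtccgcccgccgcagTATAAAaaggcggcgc
H1f0 (variant), chr15:79027962-79028211, plus strand: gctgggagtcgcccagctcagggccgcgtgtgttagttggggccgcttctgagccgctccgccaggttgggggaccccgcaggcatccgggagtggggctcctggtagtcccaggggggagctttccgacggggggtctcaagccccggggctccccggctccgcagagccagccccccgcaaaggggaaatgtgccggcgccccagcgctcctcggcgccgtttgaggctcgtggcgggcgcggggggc
The Hist1h2ag window held 5 CCAAT matches, those of Hist1h1b and Hist2h2ac 3 each, and those of Hist1h4k and H1f0 none.

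Gene counts totalled 61652843, 59595680, 24869421 and 21835165. Histone members took 1.51%, 1.09%, 1.87% and 1.37% of them. Gfi1b itself had more counts in the libraries labelled knockout, 84744 against 10137 with PF4-Cre and 55122 against 5864 with ROSA-Cre. A count over all exons does not check which exons were deleted, so every direction below rests on the labels. Of 12 megakaryocyte markers all were detected in every library. They summed to 7219, 7790, 10076 and 6839 CPM (counts scaled to TMM-normalised library sizes). Their median log2 ratio of knockout to wild-type was -0.02 with PF4-Cre and -0.63 with ROSA-Cre. In the edgeR test described below 3 rose and 3 fell, against 11.6% and 8.72% of all genes.

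The main question was how histone transcripts differed with Gfi1b genotype. Summed over each Hist class, the level was lower in the knockout of each model, while the variants split. Hist cluster genes summed to 12898, 8024, 16002 and 10878 CPM, which gives ratios of knockout to wild-type of 0.622 for the PF4-Cre model and 0.680 for ROSA-Cre. Variant genes summed to 2677, 2726, 2848 and 2496 CPM, with ratios of 1.02 and 0.876. The edgeR quasi-likelihood fit held Cre model and genotype (n = 2 libraries per genotype, Benjamini-Hochberg adjusted at 0.05). In it 45 of 65 members fell, against 8.72% of the 15063 genes tested, and 4 rose, against 11.6%. The other 16 passed in neither direction, where 20.3% of all genes passed in either. The median log2 fold change was -0.64 over the members and -0.02 over all genes tested. All 65 members passed the filter on low counts. Both knockout libraries lay below both wild-type libraries for 44 members and above them for 4, against 23.7% and 23.4% of all genes.

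**Figure D1:**
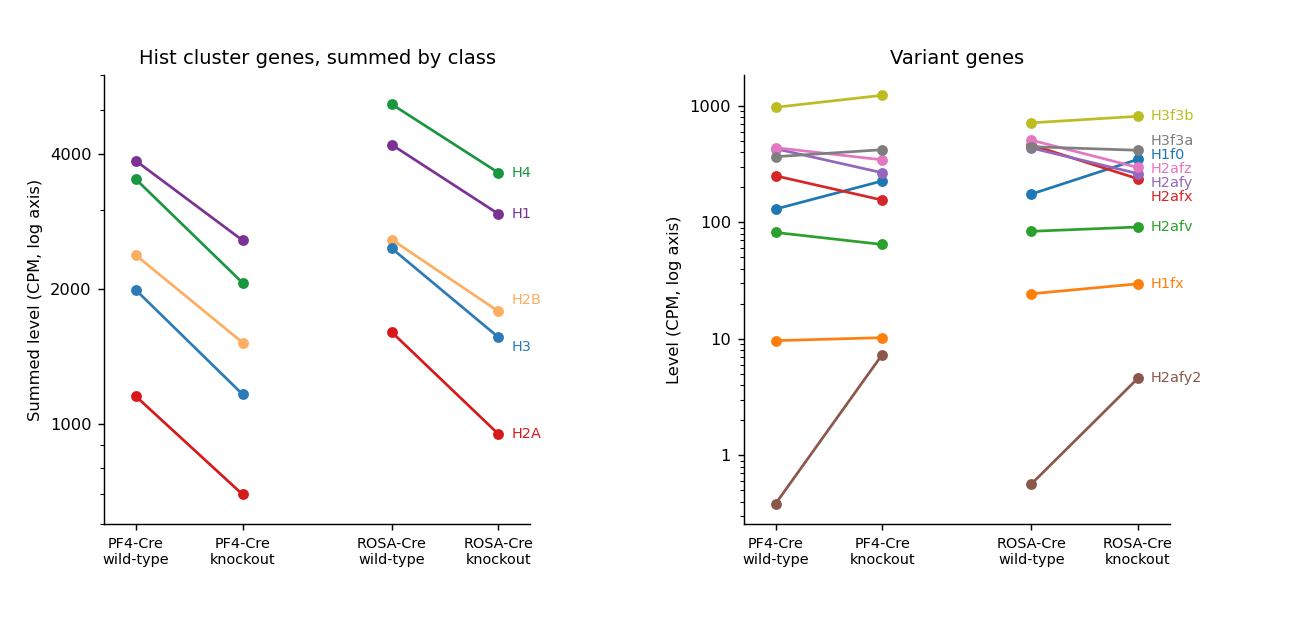
Level of histone genes in the 4 libraries, in CPM on log axes, with a line joining wild-type and knockout of each Cre model and 1 library per point. The left panel sums the 56 Hist members by class, each of which was lower in the knockout of each model, and the right panel shows the 9 variants, where H2afy2 and H1f0 were higher and H2afx, H2afy and H2afz lower in each model.

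The spread behind these p-values is the disagreement between the 2 Cre models, moderated across genes, since no group had a second library. Without the Cre model term the edgeR fit called 0 members lower (24 at an unadjusted p under 0.05) and 1 higher. With 1 library left out no spread could be estimated beside the Cre model term, so those fits lack it too and change 2 choices at once. They called 4 lower without the PF4-Cre wild-type library, 4 without the ROSA-Cre knockout, and 0 without the PF4-Cre knockout or the ROSA-Cre wild-type (5 and 2 at an unadjusted p under 0.05). With each library's trend on GC content and exonic length taken out, 28 members fell, against 11.2% of all genes, and the median was -0.41. In bulk RNA, fewer cells of a type and less RNA per cell cannot be told apart.

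Markers of other cells also moved with genotype, although the sort took lineage-negative cells. Over all genes tested in edgeR, 8.72% fell and 11.6% rose. The 10 neutrophil precursor markers summed to 1741, 1077, 1887 and 492 CPM, and 4 fell. Mpo, the granule peroxidase, had 696, 195, 711 and 179 CPM, a large part of these sums. The median log2 ratio of knockout to wild-type over these markers was 0.04 with PF4-Cre and -1.95 with ROSA-Cre. The 10 erythroid markers summed to 50.1, 205, 114 and 331 CPM, where 4 rose and 3 fell. The globin gene Hbb-bs, at 7.30, 135, 37.7 and 221 CPM, made up most of both knockout sums. The median log2 ratio of the erythroid markers was 1.065 with PF4-Cre but -1.64 with ROSA-Cre. Their median log2 fold change in the edgeR fit was -0.59. Macrophage markers (7) summed to 46.8, 29.97, 54.4 and 20.1 CPM and 2 fell, and mast cell and basophil markers (6) to 63.6, 88.2, 83.7 and 110 CPM and 2 rose. B cell markers (9) summed to 20.5 to 31.8 CPM and T and NK cell markers (7) to 35.7 to 92.8 CPM. In edgeR 0 of these passed either way (4 lower and 1 higher at an unadjusted p under 0.05), and in DESeq2 1 T and NK cell marker was lower. In the ROSA-Cre knockout 5 of the B cell and 3 of the T and NK cell markers were at 0. The part of these cells in the histone results was not tested.

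The H1 genes encode linker histones, which bind the DNA between nucleosomes. They summed to 3861, 2570, 4193 and 2943 CPM. Of the 6, 3 fell. Hist1h1b had 725, 417, 779 and 396 CPM, both knockouts well below both wild-types. Its ratios were 0.575 for PF4-Cre (95% counting interval 0.566 to 0.584) and 0.509 for ROSA-Cre (0.496 to 0.522). The fitted log2 fold change was -0.89 (SE 0.13, adjusted p = 0.0069, edgeR). Hist1h1d, at 888, 569, 1005 and 611 CPM, fell by 0.68 on the log2 scale (adjusted p = 0.0161, edgeR). Hist1h1a fell by 0.57 (adjusted p = 0.0338), a call that ended with the GC and length correction (adjusted p = 0.116). Hist1h1c was the H1 gene with most counts, at 974, 767, 987 and 853 CPM, and its difference of -0.28 did not pass (adjusted p = 0.189). Hist1h1e, at 450, 317, 549 and 427 CPM, lay just outside the threshold (-0.43, adjusted p = 0.0517). The testis H1 gene Hist1h1t had only 57, 57, 8 and 19 counts.

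H2A genes, 1 of the 4 core classes around which DNA is wrapped, summed to 1155, 699, 1605 and 952 CPM, and 11 of 13 fell. Hist2h2ab (ENSMUSG00000063689, chromosome 3 from 96219865 to 96220308, plus strand) had the lowest log2 fold change of its class. It had 2190, 971, 1593 and 541 counts, or 36.6, 16.1, 64.7 and 24.2 CPM. The knockout of each model was under 0.5 of its wild-type, with ratios of 0.438 and 0.373, and the log2 fold change was -1.30 (SE 0.15, adjusted p = 0.00266, edgeR). Gm15444, an antisense gene over it, had 10, 8, 80 and 24 counts. Hist2h2ac, the H2A gene with most counts, had 264, 158, 337 and 159 CPM and fell by 0.91 (SE 0.14, adjusted p = 0.00695). Hist1h2ab had 164, 96.0, 296 and 198 CPM. The ROSA-Cre knockout was above the PF4-Cre wild-type, so its genotypes overlap although each model was lower (-0.68, SE 0.12, adjusted p = 0.0136, and 0.136 with the GC and length correction). Hist3h2a, in the small Hist3 cluster, was the exception in direction, with 2275, 2485, 117 and 216 counts. It was 1.079 times as high in the PF4-Cre knockout and 2.02 times in the ROSA-Cre knockout, and the difference of 0.51 did not pass (adjusted p = 0.172).

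H2B genes encode the partner of H2A in the nucleosome. They summed to 2380, 1522, 2579 and 1786 CPM, with 9 of 13 lower and 2 higher. Hist1h2bb, the H2B gene with most counts, had 682.5, 416, 712 and 551 CPM and fell by 0.54 (adjusted p = 0.0389, and 0.244 with the GC and length correction). Hist1h2be had 364, 240, 457 and 331 CPM and fell by 0.53 (adjusted p = 0.0279). Its annotated model runs into that of Hist1h1e on the same strand, so reads of the shared stretch cannot be assigned. Hist1h2bj had 289, 168, 291 and 150 CPM, the lowest log2 fold change of the class at -0.87 (SE 0.13, adjusted p = 0.00608).

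The 2 H2B genes that rose were Hist2h2be and Hist3h2ba. Hist2h2be (ENSMUSG00000068854, chromosome 3 from 96221119 to 96223738, plus strand) had 1333, 2347, 414 and 537 counts, or 22.3, 38.8, 16.8 and 23.98 CPM. Both knockouts were above both wild-types, at ratios of 1.74 (interval 1.63 to 1.86) and 1.42 (1.252 to 1.62). The log2 fold change was 0.66 (SE 0.17, adjusted p = 0.0337). Its annotated transcript holds no stem-loop of the form searched for and ends near the poly(A) signal AATAAA. Hist3h2ba (ENSMUSG00000056895, chromosome 11 from 58948920 to 58949533, plus strand) had 573, 814, 200 and 488 counts, or 9.59, 13.5, 8.13 and 21.8 CPM. Its ratios were 1.40 and 2.68 and its log2 fold change 0.94 (SE 0.27, adjusted p = 0.0484). Its transcript holds the stem-loop printed above, runs on for 169 bases and also ends near AATAAA.

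Neighbouring H2A and H2B genes often share the DNA between their starts and are read in opposite directions. There were 9 such pairs among the members, 176 to 302 bases apart. In 8 pairs both log2 fold changes had the same sign, and in 6 both genes fell. Of all H2A members 11 of 13 fell and of all H2B members 9 of 13, against 8.72% of all genes. Like signs are therefore frequent between H2A and H2B genes that are not neighbours too. Whether neighbours were more alike was not tested. With the GC and length correction, where 11.2% of all genes fell, the signs were alike in 8 pairs and both genes fell in 3. The median difference within a pair was 0.13, and the largest among these 8 was 0.31, between Hist1h2ah (-1.13) and Hist1h2bk (-0.82). Hist1h2ag and Hist1h2bj, 270 bases apart, had log2 fold changes of -0.84 and -0.87. The remaining pair was Hist2h2ac (-0.91) and Hist2h2be (0.66), 239 bases apart, which fell and rose past the test. The sequence between them is the Hist2h2ac window printed above, with 3 CCAAT matches, 1 TATAAA and 1 octamer.

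**Figure D2:**
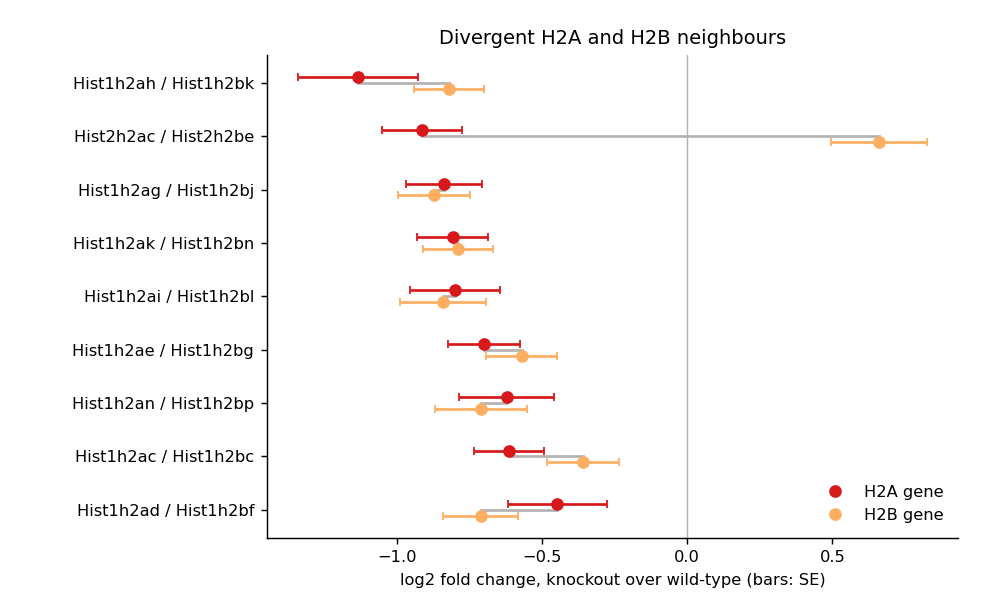
Log2 fold change of knockout over wild-type (edgeR, bars show the SE) for the 9 divergent H2A and H2B pairs, red for the H2A gene and orange for the H2B gene. In 8 pairs both genes lie below 0 and close together, and in the pair Hist2h2ac and Hist2h2be the values are -0.91 and 0.66.

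H3 genes carry most of the modified tails by which chromatin states are named. They summed to 1991, 1167, 2465 and 1564 CPM, and 9 of 11 fell. Hist1h3f had 532, 295, 672 and 404 CPM, the highest of the class, and fell by 0.79 (SE 0.13, adjusted p = 0.00879). Hist1h3e had 415, 255, 533 and 355 CPM and fell by 0.64 (adjusted p = 0.0161). In both genes each knockout lay below both wild-types. Hist1h3g had the lowest log2 fold change, -0.85 (SE 0.13, adjusted p = 0.008), at 53.4, 30.2, 72.1 and 39.2 CPM. Hist2h3c2 had few counts, 259, 197, 24 and 28, and its difference of -0.09 did not pass (adjusted p = 0.889).

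H4 genes summed to 3512, 2067, 5161 and 3634 CPM, and 10 of 13 fell. H4 pairs with H3 at the core of the nucleosome. Hist1h4d had 846, 493, 1133 and 809 CPM and fell by 0.63 (SE 0.14, adjusted p = 0.0257). Hist1h4c had 516, 281, 813 and 618 CPM and fell by 0.64 (adjusted p = 0.0321, and 0.0542 with the GC and length correction). In Hist1h4c the ROSA-Cre knockout was above the PF4-Cre wild-type, so the genotypes overlap. Hist4h4, at 309, 256, 427 and 275 CPM, had the highest log2 fold change of the class, -0.45, which did not pass (adjusted p = 0.0601).

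Hist1h4m departed from its class in 1 library. This gene (ENSMUSG00000069306, chromosome 13 from 21811746 to 21812147, plus strand) had 1592, 6, 1027 and 912 counts. Its ratio with PF4-Cre was 0.00462 (interval 0.00136 to 0.00812) and its ROSA-Cre ratio 0.976 (0.892 to 1.07). The 2 models disagreed so far that the fitted -2.70 had an SE of 1.53 and did not pass (adjusted p = 0.252). Of its 50-base windows 89.8% also occur in Hist1h4n, whose stem-loop is the same, and 36 windows are its own. Hist1h4n had 9336, 6728, 4814 and 2722 counts, with ratios of 0.712 and 0.621 and no such drop in the PF4-Cre knockout.

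**Figure D3:**
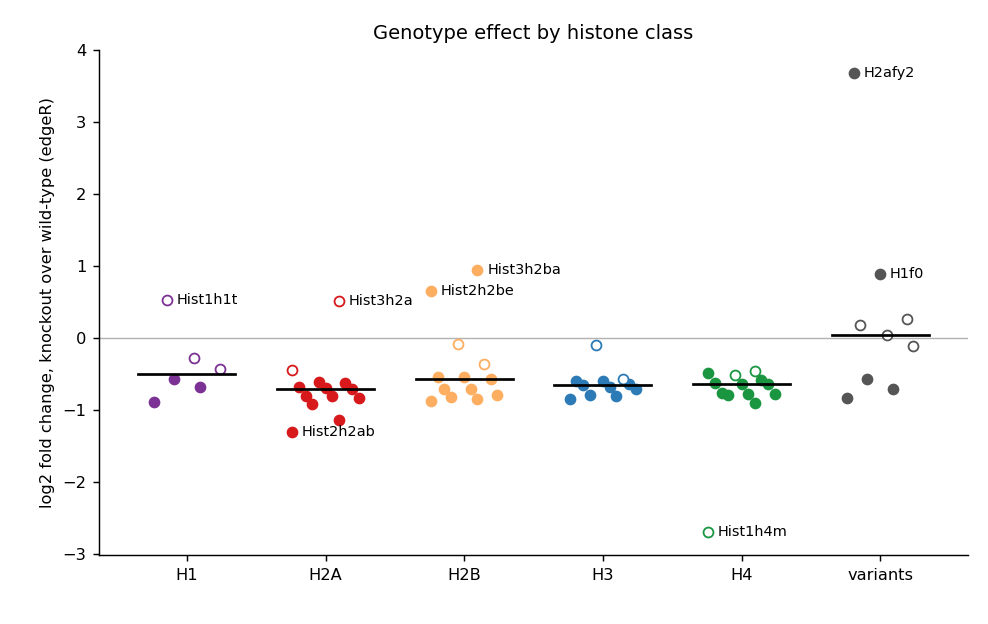
Log2 fold change of knockout over wild-type (edgeR) for the 65 members by class, filled where the adjusted p was under 0.05 and open elsewhere, with a black line at the class median. Most points of the 5 Hist classes lie between -1 and 0, while H2afy2, H1f0, Hist3h2ba and Hist2h2be are the filled points above 0.

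Among the 9 variants 2 rose, 3 fell and 4 did not pass. H2afy2, which encodes a macroH2A protein with a large extra domain, is annotated on chromosome 10 from 61738665 to 61784147, minus strand (ENSMUSG00000020086). It had 23, 443, 14 and 103 counts, or 0.385, 7.32, 0.569 and 4.5998 CPM. The knockouts were 18.0 times (interval 12.5 to 30.3) and 7.80 times (4.61 to 15.3) their wild-types. The log2 fold change was 3.69 (SE 0.45, adjusted p = 0.00339). Aifm2, which overlaps it on the other strand, had 189, 602, 103 and 364 counts and rose by 1.80 (adjusted p = 0.00536). Reads of the overlap could belong to either gene if the counting did not use strand. H2afy, the other macroH2A gene, moved the other way: it had 428, 267, 434 and 262 CPM and fell by 0.71 (SE 0.12, adjusted p = 0.0113).

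H1f0 encodes a linker histone known for building up in cells that have stopped dividing. The gene (ENSMUSG00000096210, chromosome 15 from 79028450 to 79030504, plus strand) had 7770, 13710, 4303 and 7785 counts, or 130, 227, 175 and 348 CPM. Both knockouts were above both wild-types, at 1.74 times (1.70 to 1.79) and 1.99 times (1.92 to 2.06). The log2 fold change was 0.90 (SE 0.13, adjusted p = 0.00552). Hist1h1b, Hist1h1d and Hist1h1a, replication-dependent linker histones, fell in the same fit. H1fx, a further linker variant, had 577, 620, 600 and 665 counts and did not pass (0.19, adjusted p = 0.504). Gm5577, antisense over H1fx, had 306, 684, 152 and 250 counts.

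H2afx encodes H2A.X, which is phosphorylated around DNA breaks, and its transcript holds a stem-loop 822 bases before the end of the model. It had 251, 155, 462 and 236 CPM and fell by 0.83 (SE 0.13, adjusted p = 0.0084). H2afz encodes H2A.Z, found at promoters, and had 438, 344, 507 and 296 CPM (-0.56, SE 0.15, adjusted p = 0.0386). Its near relative H2afv had 81.9, 64.6, 83.8 and 91.2 CPM and did not pass (-0.11, adjusted p = 0.641). The 2 genes for the same replacement H3 protein, H3f3a and H3f3b, did not pass either. H3f3a had 366, 420, 446 and 416 CPM (0.05, adjusted p = 0.832), and H3f3b had 972, 1231, 715 and 813 CPM (0.26, adjusted p = 0.213). Per kilobase of exon the variants ranged from 1.48 CPM for H2afy2 to 313 CPM for H3f3b in the mean of the 4 libraries, and the medians of the Hist classes from 94.8 CPM for H2A to 399.8 CPM for H1.

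Each Cre model was also read on its own, with 1 library a group and therefore no test. Past 1.5-fold, 46 members were lower and 3 higher in the PF4-Cre knockout, against 8.27% and 16.7% of all genes. In the ROSA-Cre knockout 34 were lower and 5 higher, against 18.3% and 22.4%. Of these 46 and 34 lower members, 2 and 3 were also lower past 2-fold, and the rest lay between 1.5-fold and 2-fold. Ratios were below 1 in both models for 53 members and above 1 in both for 7, against 40.7% and 36.2% of all genes. Across the 55 Hist members other than Hist1h4m, the log2 ratios of the 2 models had a Pearson r of 0.70 and a Spearman rho of 0.53. With Hist1h4m r was 0.14. The models share no library, but near-identical genes share sequence, so the points cannot be taken as independent.

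**Figure D4:**
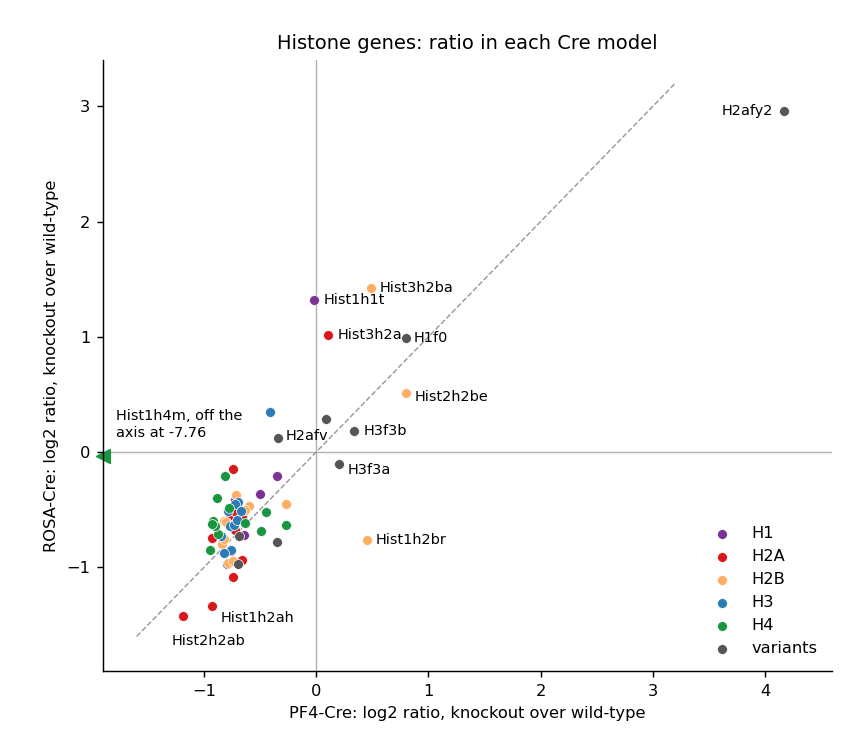
Log2 ratio of knockout to wild-type in PF4-Cre (horizontal) and ROSA-Cre (vertical) for the 65 members, coloured by class, with a dashed line where both are equal. Most members lie low on both axes, H2afy2, H1f0, Hist3h2ba and Hist2h2be are high on both, and Hist1h4m is drawn at the left edge because its PF4-Cre value is -7.76.

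Among the 56 Hist members, the falls that passed the test lay in the Hist1 and Hist2 clusters, which hold 47 and 6 of them. The variants that fell, H2afx, H2afy and H2afz, lie outside these clusters. Over all genes tested 8.72% fell and 11.6% rose. In the first Hist1 stretch, on chromosome 13 from 21715763 to 22043676, 16 of 19 members fell with a median log2 fold change of -0.80. In the second, from 23531050 to 23764406, 22 of 28 fell with a median of -0.65. In Hist2, 4 of 6 fell and 1 rose. The 2 Hist3 genes had 0.51 and 0.94, and Hist4h4 had -0.45.

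The members were also compared by the end of their annotated transcript. Of 12 Hist members whose model has AATAAA in its last 50 bases, 5 fell and 2 rose, with a median log2 fold change of -0.36. Of the 44 without it, 37 fell and 0 rose, with a median of -0.68. Over all genes tested 8.72% fell and 11.6% rose. With the GC and length correction 5 of the 12 and 20 of the 44 were lower, against 11.2% of all genes. In that fit 2 of the 12 and 0 of the 44 were higher, against 11.9%. The medians were then -0.30 and -0.42. Members whose model ends within 100 bases of the stem-loop (18) had a median of -0.74, and those that run on further (21) -0.61. Those with no stem-loop of the form searched for in the model (17) had -0.70. These groups rest on the annotation. Some models are short, such as Hist1h4k with 312 bases, and a model may stop before the end of the messenger. The log2 fold change also went with exonic length (Spearman rho 0.55 across the 56 Hist members), GC content (-0.49) and the share of sequence held in common with other genes (-0.36). These features go together in the same genes, and their part in the result was not tested.

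Other genes of the pathway were read from lists. Of 19 matched genes of histone mRNA processing, 2 fell and 0 rose, against 8.72% and 11.6% of all genes. The number that fell was therefore near the share over all genes. The median log2 fold change of the list was -0.23. The 2 that fell were Upf1, a helicase needed for histone mRNA decay (-0.55, adjusted p = 0.028), and Ncbp1, a cap-binding protein (-0.49, adjusted p = 0.0447). Slbp had 193, 143.5, 171 and 137 CPM and did not pass (-0.38, adjusted p = 0.0667). Eri1, an exonuclease that trims the stem-loop end, did not pass either (-0.31, adjusted p = 0.112).

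Of 28 chaperone and deposition genes, 5 fell in edgeR, 8 in DESeq2 and 0 rose in either (median -0.25). In edgeR 8.72% of all genes fell and 11.6% rose. Chaf1a (-0.76, adjusted p = 0.0106) and Chaf1b (-0.74, adjusted p = 0.0117) encode subunits of the complex that deposits H3 and H4 behind the replication fork. Asf1b (-0.53, adjusted p = 0.0309) and Nasp (-0.51, adjusted p = 0.0373) encode chaperones that supply H3 and H4. Of 34 genes of S phase and replication, 29 fell and 0 rose, with a median of -0.56. Mcm2, a subunit of the replicative helicase, had 372, 249, 442 and 212 CPM (-0.82, adjusted p = 0.0142). Fen1, which removes flaps from new strands, fell by 0.78 (adjusted p = 0.009), Cdc6, which loads the helicase, by 0.77 (adjusted p = 0.0107) and Pole, the leading-strand polymerase, by 0.64 (adjusted p = 0.0142). These genes' median lay near that of the Hist genes, -0.66, and whether one set of differences accounts for the other was not tested.

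Of 11 histone genes outside the chosen symbols, 3 had enough counts to be tested. Cenpa, the centromeric H3, had 88.2, 60.2, 100.4 and 52.7 CPM and fell by 0.74 (adjusted p = 0.0161). H2afj had a log2 fold change of -0.58 (adjusted p = 0.0614), and H3f3c had only 31, 30, 3 and 0 counts.

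The second comparison asked whether histone levels differed between the Cre models, with genotype as a term. In ROSA-Cre 20 members were higher, against 7.36% of all genes, and 3 were lower, against 9.67%. The classes differed in their counts: 9 of 13 H4 genes and 7 of 13 H2A genes were higher, 1 of 11 H3 genes, and 0 of 13 H2B and 0 of 6 H1 genes. At an unadjusted p under 0.05 edgeR gave 7 H3, 2 H2B and 1 H1 genes, and DESeq2 called 3, 1 and 0. Median log2 differences (ROSA-Cre minus PF4-Cre) were 0.63 for H4, 0.63 for H2A, 0.32 for H3, 0.19 for H2B and 0.11 for H1, but whether the classes differ was not tested. In 8 of the 9 divergent pairs the H2A gene had the larger difference, with a median gap of 0.46.

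Hist1h4k had 112, 58.0, 277 and 154 CPM, with a ROSA-Cre level 2.48 times that of PF4-Cre in wild-type and 2.66 times in knockout (log2 1.36, SE 0.12, adjusted p = 0.00423, edgeR). In the genotype comparison it fell by 0.90 (SE 0.12, adjusted p = 0.00483). Hist2h3b had 71.0, 44.5, 156 and 110 CPM (1.22, SE 0.13, adjusted p = 0.00511). It holds no 50-base window of its own, and the antisense gene Gm20628 over it had 255, 213, 1457 and 832 counts. H1fx (1.44), H2afx (0.74) and H1f0 (0.52) were the variants that were higher. The 3 that were lower were Hist3h2a (-2.53, SE 0.25, adjusted p = 0.0049), at 38.1, 41.1, 4.75 and 9.65 CPM, Hist2h3c2 (-1.76, adjusted p = 0.027) and H3f3b (-0.52, adjusted p = 0.0427).

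Most of these calls did not hold in a fit corrected for GC content and length. With each library's trend on them taken out, 6 members were higher, against 2% of all genes, and 7 lower, against 1.14%. Calls over all genes thus became fewer too, from 7.36% higher and 9.67% lower. Whether GC content and length account for the calls was not tested. The median over the members moved from 0.31 to -0.09. H2A genes went from 7 higher and 1 lower to 0 higher (2 at an unadjusted p under 0.05 in edgeR) and 3 lower, while 4 H4 genes were higher. Hist1h4j (1.10, adjusted p = 0.00678, edgeR), Hist1h4c (0.996, adjusted p = 0.0203) and Hist1h4d kept their higher calls, and those of Hist4h4, Hist1h1d and Hist1h2be were new. Hist1h2ak turned from higher (0.63, adjusted p = 0.0171) to lower (-0.62, adjusted p = 0.037). Most of the lower calls were also new, among them Hist1h2bj (-0.74, adjusted p = 0.019). The gap within divergent pairs was then 0.04. H2A members had a median GC content of 64.3%, H2B of 56.5% and H4 of 56.2%. The higher calls of Hist1h4k (0.27, adjusted p = 0.271), Hist2h3b (0.12, adjusted p = 0.67), H1fx (0.15, adjusted p = 0.721), H2afx (0.15, adjusted p = 0.489) and H1f0 (0.47, adjusted p = 0.0851) ended, as did the lower call of H3f3b (-0.089, adjusted p = 0.741). Hist3h2a stayed lower (-2.23, adjusted p = 0.00376), as did Hist2h3c2 (-2.23, adjusted p = 0.035). Depth was lower in both ROSA-Cre libraries, and depth and Cre model cannot be told apart. Without the genotype term edgeR called 0 members (4 higher and 2 lower at an unadjusted p under 0.05), as it did without each library in turn, where the genotype term was left out too (1 to 13 higher and 1 or 2 lower at that limit).

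**Figure D5:**
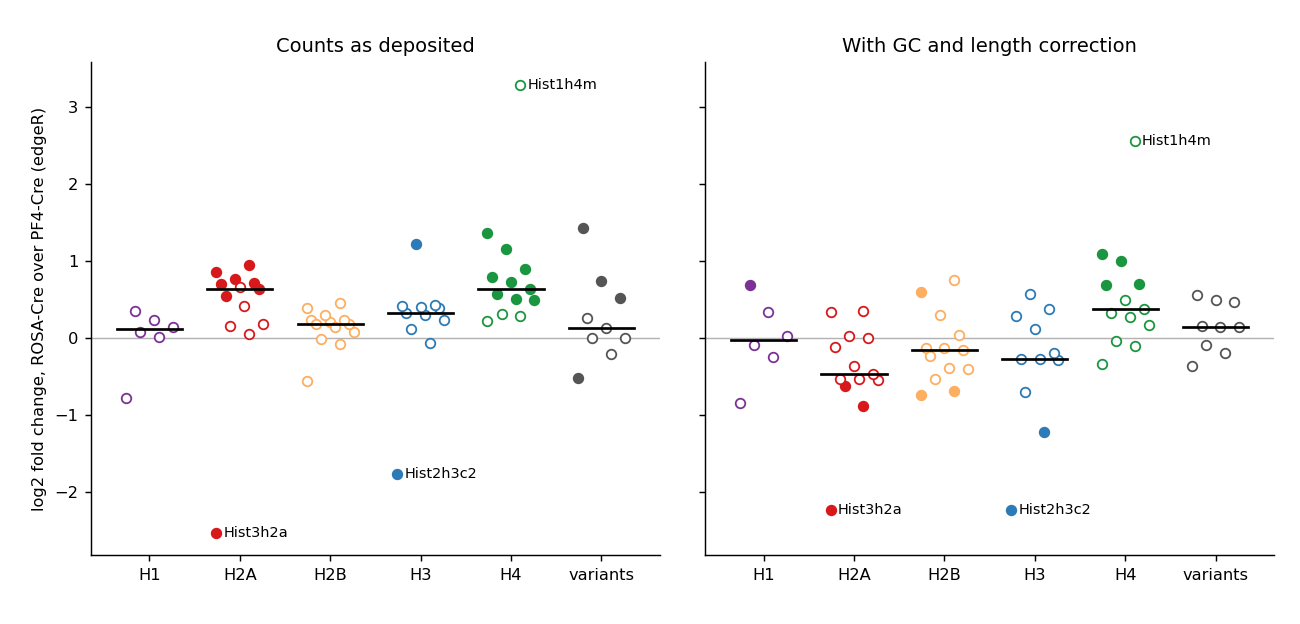
Log2 fold change of ROSA-Cre over PF4-Cre (edgeR) for the 65 members by class, filled where the adjusted p was under 0.05, with a black line at the class median. In the left panel, from the counts as deposited, 9 H4 and 7 H2A genes are filled above 0, and in the right panel, with GC and length trends taken out, 4 H4 genes and 0 H2A genes are.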

How the data were processed

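The authors deposited raw HTSeq read counts per Ensembl gene, 1 table for each of 4 libraries. Per the submitters' processing notes, the build was GRCm38 and the tools included HTSeq, SAMtools, DESeq and TopHat2 2.0.10. The annotation release was not given in the sources used here, nor the strand setting. HTSeq's own categories stayed out of all totals: reads with no gene made up 32.1% to 36.2% of uniquely aligned reads and ambiguous reads 0.448% to 0.532%. Symbols, coordinates and transcripts came from GENCODE M21 (40340 of 41214 identifiers matched).

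All genes were fitted with edgeR 4.0.16 in R 4.3.3: TMM, filterByExpr by genotype (minimum count 10), Cre model and genotype terms, quasi-likelihood F-tests, Benjamini-Hochberg adjustment over 15063 genes. There was 1 residual degree of freedom, 6.13 prior degrees of freedom and a biological coefficient of variation of 16.1%. An SE is the fold change (log2) divided by the root of its F statistic. Ratios within a model use a pseudocount of 1 and 95% Clopper-Pearson intervals, which cover counting error only. The GC and length correction fits natural splines (4 degrees of freedom each) per library as an offset. It covered 99.2% of tested genes. The fit was also run on simulated data with a common spread for all genes and no Cre model effect. That run cannot check the p-values of these data, which rest on the disagreement between the Cre models.

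The members, lists and the rule for named genes were chosen with earlier results of these data known. The rule took all variants, the 2 genes with most counts and the extremes of log2 fold change in each class (mean of at least 1 CPM), every member that rose, and up to 4 genes of each list by p-value, plus, for each other cell type, its marker with most counts. Hist1h1a, Hist1h1e, Hist1h1t, Hist1h4k, Hist1h4n, Hist1h4j, Hist2h3b, Hist1h2ak and the paired genes were named once their values were known. Alternatives were DESeq2 1.42.0 and its size factors, other filters, thinned counts, the correction, a model without the other term and each library left out, and, added after seeing the data, scaling without histone genes.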

Additional observations from a re-analysis of the deposited data

Results flagged for a closer look

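H2afv and H3f3a moved in opposite directions in the 2 Cre models, with counting intervals off 1 in each. The H2afv ratio of knockout to wild-type was 0.789 with PF4-Cre (95% counting interval 0.756 to 0.823) but 1.09 with ROSA-Cre (1.02 to 1.16). The H3f3a ratio was 1.15 with PF4-Cre (1.13 to 1.17) but 0.932 with ROSA-Cre (0.907 to 0.958). With 1 library per group the difference between the models was not tested, and the intervals hold counting error only.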

How the results depend on the processing

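No paired analysis was possible because the labels give no replicate numbers, other than the Cre model term, which sets each knockout against the wild-type of its own model. The fits with 1 library left out also lack the second term, so 2 choices change in them. For the genotype effect, the number of members lower in knockout was 45, 28 with the GC and length correction, 0 without the Cre model term and 0 to 4 with 1 library left out. The number higher was 4, 1 without the Cre model term and 1 to 2 with 1 library left out. The median log2 fold change of -0.64 became -0.41 with the correction and -0.85 to -0.41 with 1 library left out. For the Cre model effect, members higher in ROSA-Cre went from 20 to 6 and those lower from 3 to 7 with the correction, and both to 0 without the genotype term or any 1 library; the median of 0.31 became -0.086 with the correction and ran from -0.0047 (without the ROSA-Cre wild-type) to 0.64. Within models, a 2-fold rule gave 2 lower and 1 higher in PF4-Cre and 3 lower in ROSA-Cre, and the lower fold rule 6 higher in PF4-Cre. The other scalings, filters, thinning and DESeq2 kept these member counts within 1.5 times, while DESeq2 called 8 chaperone genes lower where edgeR called 5.

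With 1 library left out and no Cre model term, differences between the models enter the genotype value. In these fits the log2 fold change changed sign for H1fx (-0.73 to 1.06), H2afv (-0.36 to 0.14), H3f3a (-0.089 to 0.22), H3f3b (-0.052 to 0.54), Hist3h2a (-1.16 to 2.43), Hist2h3c2 (-1.11 to 1.23), Hist1h4m (-8.39 to 0.25, the latter without the PF4-Cre knockout), Eri1 (-0.63 to 0.065), H3f3c (-6.60 to 1.17), Prss34 (-0.99 to 1.86), Hist1h1t (-0.057 to 1.46) and Hist2h3b (-1.35 to 0.14). Of these Hist2h3b alone passed the test with all libraries (-0.59, adjusted p = 0.0211, edgeR). Its call ended with the GC and length correction (-0.22, adjusted p = 0.294, edgeR). Hist2h3c2 also turned with the correction (0.14) and with thinned counts (0.10). Within the models, the ratios of H1fx were both above 1 (1.06 and 1.22) and those of Hist2h3b both below 1 (0.627 and 0.703). Those of H2afv and H3f3a lay on opposite sides of 1. The cause was not tested.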

Other observations

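Histone genes are hard to count because many are near copies of each other. Of the 56 Hist members, 52 share at least 1 window of 50 bases with another gene, 5 members share over 90% of their windows, and Hist2h3b shares all of them. The 8 candidates below the count minimum include Hist2h2aa1 (8 counts summed over the libraries), Hist2h2aa2 (6) and Hist2h3c1 (0), whose windows are all shared, so a low count there does not show a low level. The tables list 73166767, 69996226, 24614858 and 22523015 records that aligned to more than 1 place and were counted for no gene. Hist members with over 75% shared windows (14) had a median log2 fold change of -0.73 for the genotype effect, and those with under 25% (15) had -0.61.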
